A study of Drosophila melanogaster with 6 samples.

Results

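The digestive lysozymes of Drosophila are a small family of peptidoglycan-degrading enzymes whose genes stand side by side on chromosome arm 3L. They were chosen here by name: LysB, LysC, LysD, LysE, LysP, LysS and LysX, 7 genes in all. A value was listed for 6 of them among the 13858 genes measured, and the pseudogene LysC was not analysed here. RNA came from whole female third-instar larvae of 96 h, raised on grape agar with yeast, and 12 to 15 larvae were pooled for each library. In the Dctn1 knockdown larvae the ubiquitous driver Act5C-GAL4 expressed UAS-Dctn1-RNAi (VDRC ID 3785), a hairpin against the large subunit of dynactin, and the 3 libraries were replicates 1, 2 and 3. The 3 driver control libraries, replicates 2, 3 and 4, came from larvae that carried Act5C-GAL4 without the hairpin. The age was given as counted from hatching in one source and from egg laying in another. The hairpin acted throughout the body, 1 RNAi line was used, and the whole animal was sequenced, so gut and carcass were mixed in every library.

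Lysozymes cut the sugar backbone of peptidoglycan, the mesh that forms the bacterial cell wall. In most animals they are known as defence proteins, but the clustered Drosophila genes are expressed mainly in the digestive tract, where they are thought to break down bacteria eaten with the food. LysB, LysD and LysE are near-identical copies known from the midgut, LysS is known from the larval midgut and its gastric caeca, LysP from the adult salivary gland, and LysX from the gut around metamorphosis.

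In the BDGP6.54 annotation the cluster spanned 33500 bp of 3L, as drawn in the map of the genes. LysX lay at 1194739 to 1195302 on the minus strand and LysB at 1207371 to 1207981 on the plus strand. LysD followed at 1210717 to 1211196 on the minus strand, and LysE at 1212827 to 1213406 on the plus strand. LysP lay at 1218082 to 1218696 on the minus strand and LysS at 1227747 to 1228238 on the plus strand. The LysC pseudogene, at 1210485 to 1210726, overlapped the end of LysD by 10 bp. All members had a single exon. LysX lay outside mwh, a planar polarity gene, and the other 6 lay within introns of mwh (1200786 to 1232700, plus strand) with 0 bp over its exons. The coding sequences were 140 codons long in LysB, LysD, LysE and LysS, 141 in LysP and 142 in LysX.

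**Figure D1:**
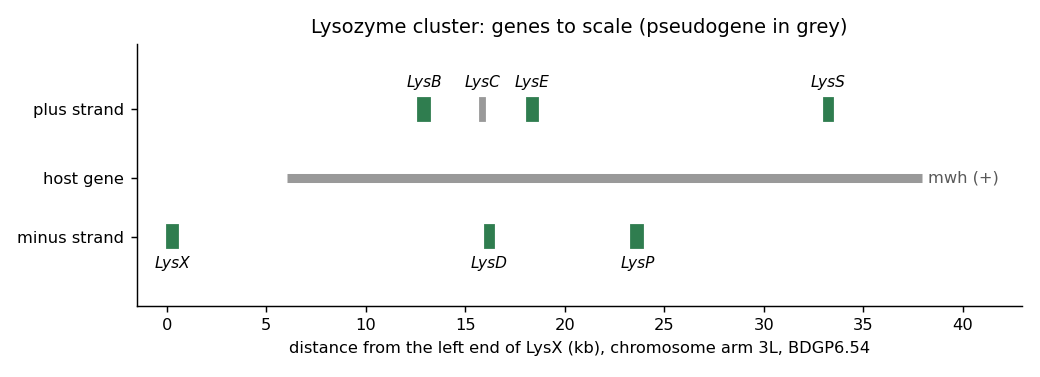
Map of the lysozyme cluster, with the distance from the left end of LysX in kb on the x axis and the strand on the y axis; boxes are genes drawn to scale, and the pseudogene LysC is grey. The cluster spans 33500 bp, and the members other than LysX lie inside the host gene mwh.

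Abundance was given as FPKM, the mapped fragments of a gene scaled by transcript length and by the size of the library, so levels could be set side by side between genes of unlike length. The summed FPKM of a library lay between 94.19% and 98.02% of the mean library in knockdown larvae and between 102% and 107% in control larvae. FPKM carries no read totals, so the depth behind each value is unknown. The targeted gene, listed as DCTN1-p150, had 7.33, 7.96 and 6.85 FPKM in knockdown larvae, against 15.26, 15.2 and 12.49 FPKM in control larvae. All knockdown libraries were below all control libraries, and the mean was 51.5% of control (log2 fold change -0.94, SE 0.13, limma with Benjamini-Hochberg adjustment, adjusted p = 0.00737). A gene was called changed at an adjusted p under 0.05 with a change of more than 2-fold, on the log2(FPKM + 0.1) scale. By this rule 108 of 9978 tested genes were lower in knockdown larvae (1.08%) and 182 were higher (1.82%). The targeted gene fell short of 2-fold and so was not called. The median change over all tested genes was 0.16 (log2).

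The members split by level and by response. LysB and LysP fell in knockdown larvae, which is 2 of the 6 members tested, against 1.08% of all tested genes called lower. The members were chosen with earlier results of these data known, so their counts are no independent evidence of direction. LysD and LysE were lower in every knockdown library than in any control library but missed the threshold. Groups did not overlap, with knockdown lower, in these 4 members, against 4.66% of all tested genes. LysB, LysD and LysE are near-identical copies whose reads may be exchanged, so the members are not separate counts. LysS, by far the most abundant member, and LysX had overlapping values. Limma called 0 of the 6 higher, against 1.82% of all tested genes, and 0 were higher at an unadjusted p under 0.05. The median log2 fold change of the 6 members was -1.61. In whole-larva RNA, fewer cells of a type and less RNA per cell cannot be told apart.

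**Figure D2:**
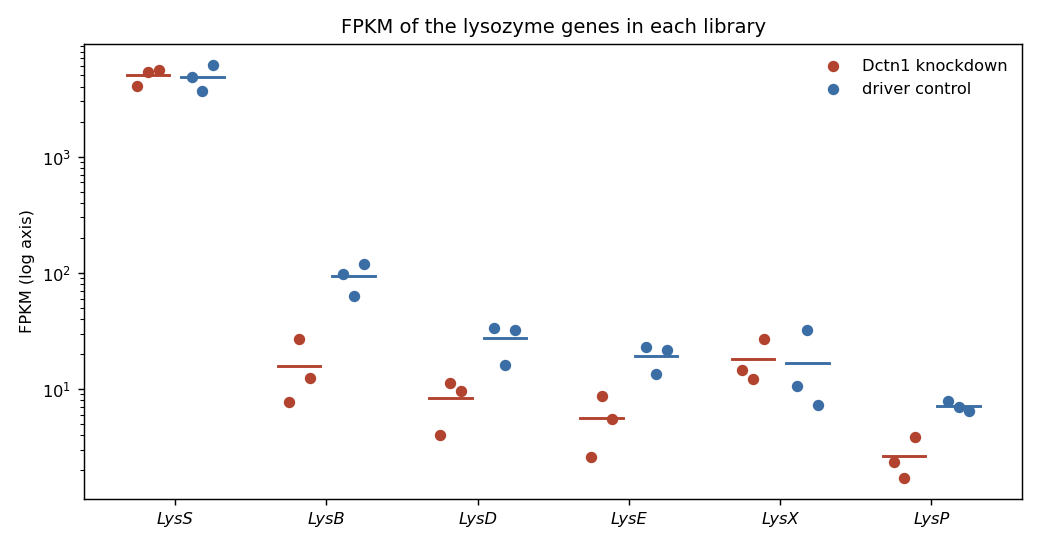
FPKM of each lysozyme gene (y axis, log scale) in the 3 Dctn1 knockdown and 3 driver control libraries, with each point a library and bars at the group means. LysS lies between 3638 and 6171 FPKM in every library, while the knockdown points of LysB, LysD, LysE and LysP all lie below the control points.

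LysB, the most abundant of the near-identical midgut copies in control larvae, showed the largest change of the members. It had 7.75, 27.11 and 12.46 FPKM in knockdown larvae, against 97.24, 63.63 and 118.97 FPKM in control larvae. The groups were far apart, and the highest knockdown library was still below the lowest control library. The means were 15.8 ± 10.1 FPKM in knockdown larvae and 93.3 ± 27.9 FPKM in control larvae (SD, n = 3 each), and the knockdown mean was 16.9% of control. The log2 fold change of LysB was -2.70 with an SE of 0.51 and a 95% interval of -3.97 to -1.43 (limma with Benjamini-Hochberg adjustment, adjusted p = 0.0423). The call for LysB was held without knockdown replicate 2 (adjusted p = 0.00612). It was lost without knockdown replicate 1 (0.0754) or 3 (0.113) and without control replicate 2 (0.118), 3 (0.102) or 4 (0.115), and with quantile normalization (0.0534), with adjusted p in brackets and log2 fold changes between -2.95 and -2.29.

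LysD, a second midgut copy, had 4.04, 11.29 and 9.59 FPKM in knockdown larvae, against 33.37, 16.19 and 32.23 FPKM in control larvae. Alone among the members, its value also covers a transcript that the sequencing centre added to the annotated one, and the effect of this was not tested. The groups did not overlap, although control replicate 3 came near the knockdown values. The log2 fold change of LysD was -1.76 (SE 0.49, 95% interval -2.97 to -0.54, limma with Benjamini-Hochberg adjustment, adjusted p = 0.0990). LysE, the remaining midgut copy, had 2.59, 8.77 and 5.54 FPKM in knockdown larvae, against 23.03, 13.43 and 21.48 FPKM in control larvae. Again no knockdown library reached the lowest control library. The log2 fold change of LysE was -1.88 (SE 0.48, 95% interval -3.07 to -0.70, limma with Benjamini-Hochberg adjustment, adjusted p = 0.0817). These intervals are for each gene alone and are not adjusted over all genes.

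**Figure D3:**
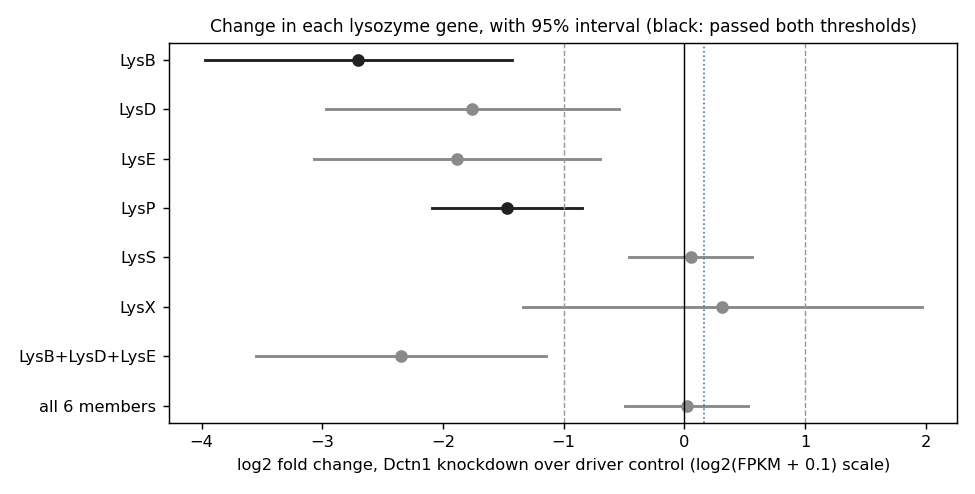
Log2 fold change of Dctn1 knockdown over driver control larvae for each lysozyme gene (x axis, log2(FPKM + 0.1) scale), with bars for the 95% interval of each gene and black marking genes past both thresholds. LysB at -2.70 and LysP at -1.47 are black, LysD and LysE lie between them, and the intervals of LysS and LysX span 0.

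Reads from near-identical copies may be divided between them, so LysB, LysD and LysE taken singly are uncertain and their sum was analysed too. The summed level of the 3 copies was 14.38, 47.17 and 27.59 FPKM in knockdown larvae, against 153.6, 93.25 and 172.7 FPKM in control larvae. Every knockdown library was below every control library. The knockdown mean of the sum was 21.2% of control, with a log2 fold change of -2.34 and an SE of 0.48, and it lay just outside the threshold (limma with Benjamini-Hochberg adjustment, adjusted p = 0.0506). The two-sided exact permutation test on the sum gave p = 0.1, which is as low as a test with 3 libraries a group can go. The sum passed the threshold under 7 of its 16 alternative settings, with adjusted p between 0.0162 and 0.137 over all of them. These 16 include a sum of LysD and LysE without LysB, which did not pass (log2 fold change -1.82, limma with Benjamini-Hochberg adjustment, adjusted p = 0.0906).

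The share of the sum assigned to each copy differed between the groups, but how reads were divided between the copies is uncertain. LysB made up 53.9%, 57.5% and 45.2% of the summed FPKM in knockdown larvae, against 63.3%, 68.2% and 68.9% in control larvae. LysB was thus the largest of the copies in every library, with a smaller share in all knockdown libraries. The log2 ratio of LysB to LysD plus LysE was 0.13 ± 0.37 in knockdown larvae and 1.01 ± 0.20 in control larvae (SD, n = 3 each, two-sided exact permutation test, p = 0.1). This ratio was one of 8 between members, chosen after the values were seen, and none could reach a smaller p. The ratio of LysD to LysE was 1.56, 1.29 and 1.73 in knockdown larvae, against 1.45, 1.21 and 1.50 in control larvae, and these overlapped.

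**Figure D4:**
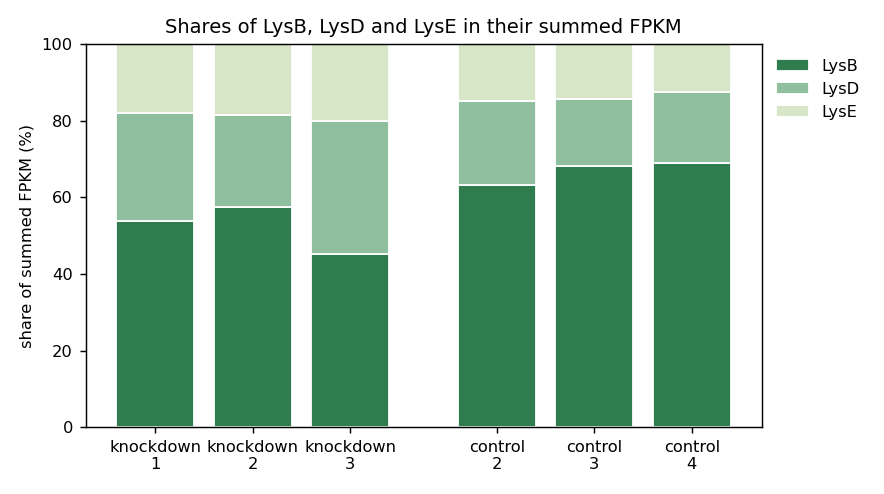
Share of LysB, LysD and LysE in their summed FPKM (y axis, %) in each library, with the 3 Dctn1 knockdown libraries left of the 3 driver control libraries. LysB takes 45.2% to 57.5% of the sum in knockdown larvae and 63.3% to 68.9% in control larvae.

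LysP, the salivary member in adults, was the least abundant in both groups. It had 2.36, 1.71 and 3.86 FPKM in knockdown larvae, against 7.84, 7.07 and 6.48 FPKM in control larvae. The control libraries lay close together and all were above the knockdown libraries. LysP averaged 2.64 ± 1.10 FPKM in knockdown larvae and 7.13 ± 0.682 FPKM in control larvae (SD, n = 3 each), with a log2 fold change of -1.47 and an SE of 0.27 (limma with Benjamini-Hochberg adjustment, adjusted p = 0.0220). The call for LysP was held without knockdown replicate 2 (adjusted p = 0.0357) or 3 (0.0111). It was lost without knockdown replicate 1 (0.0759) and without control replicate 2 (0.0785), 3 (0.0546) or 4 (0.0701). The 9 salivary gland markers, mostly glue genes of late larvae, summed to between 6157 and 12895 FPKM in knockdown larvae and between 10583 and 26971 FPKM in control larvae. Limma called 0 of the 9 changed, with 3 lower and 2 higher at an unadjusted p under 0.05, and their part in the LysP result was not tested.

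LysS dominated the family. It had 4041.73, 5363.03 and 5551.01 FPKM in knockdown larvae, against 4804.87, 3638.06 and 6171.18 FPKM in control larvae. The control libraries spanned both ends of the range, and the knockdown libraries lay between them. LysS stood at rank 15 of 13858 genes by mean FPKM in knockdown larvae and at rank 20 in control larvae. The knockdown mean was 102% of control, and the 95% interval of the change ran from 0.728-fold to 1.48-fold, so a change of 2-fold in either direction lay outside it (log2 fold change 0.05, SE 0.22, limma with Benjamini-Hochberg adjustment, adjusted p = 0.904). LysS was set against the near-identical copies within each library. It stood 281-fold, 114-fold and 201-fold above their sum in knockdown larvae, against 31.3-fold, 39.01-fold and 35.7-fold in control larvae. The log2 ratio of the sum to LysS differed by -2.40 between knockdown and control larvae (two-sided exact permutation test, p = 0.1). Because LysS made up 98.9% to 99.2% of the members' FPKM in knockdown larvae and 96.5% to 97.1% in control larvae, the total over the 6 members followed LysS, at 5036 ± 839 FPKM in knockdown larvae and 5035 ± 1294 FPKM in control larvae.

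LysX, the member of the metamorphosing gut, varied most within the control group. It had 14.71, 12.32 and 27.03 FPKM in knockdown larvae, against 10.7, 32.37 and 7.31 FPKM in control larvae. Control replicate 3 was the highest library of all, and the groups overlapped. The log2 fold change of LysX was 0.31 with an SE of 0.65, and its 95% interval of -1.34 to 1.97 left room for a change of more than 2-fold in either direction (limma with Benjamini-Hochberg adjustment, adjusted p = 0.799). Antimicrobial peptide genes, markers of the immune response, also set control replicate 3 apart. Their 14 genes summed to 902, 461 and 762 FPKM in knockdown larvae, against 103, 580 and 42.6 FPKM in control replicates 2, 3 and 4. The median log2 fold change of the 14 was 2.00, with 1 below 0. Limma called 1 higher, against 1.82% of all tested genes, with 3 higher and 0 lower at an unadjusted p under 0.05. Among them AttD, an attacin, was the gene called changed, at 5.03, 10.41 and 5.05 FPKM in knockdown larvae, against 1.26, 2.82 and 1.15 FPKM in control larvae (log2 fold change 1.94, limma with Benjamini-Hochberg adjustment, adjusted p = 0.0485). Leaving out any library but control replicate 3 ended the call for AttD (adjusted p between 0.0843 and 0.137), as did no filter (0.0554), median-of-ratios scaling (0.0755) and quantile normalization (0.0854). Without control replicate 3 the log2 fold change of LysX was 0.93.

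The order of the levels changed with these differences. In knockdown larvae LysS was followed by LysX, LysB, LysD, LysE and LysP, and each neighbouring pair after LysS overlapped. In control larvae LysS was followed by LysB, LysD, LysE, LysX and LysP. There LysS did not overlap LysB, LysB did not overlap LysD, and the lower neighbours overlapped. LysB held rank 4053 by mean FPKM in knockdown larvae and rank 880 in control larvae, whereas LysX held rank 3664 in knockdown larvae and 3631 in control larvae. Within the groups, 4 of the 6 members, LysB, LysD, LysE and LysS, were lowest in the same libraries, knockdown replicate 1 and control replicate 3. The host gene mwh averaged 1.36 ± 0.250 FPKM in knockdown larvae and 1.47 ± 0.405 FPKM in control larvae (SD, n = 3 each), and was not called changed.

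Other lysozymes lie outside the cluster. Of 6 further c-type genes, the same structural class as the cluster, 4 were tested. Of the 4, 1 was called lower, against 1.08% of all tested genes. CG7798 had 0.5, 1.33 and 0.87 FPKM in knockdown larvae, against 2.84, 2.35 and 3.28 FPKM in control larvae (log2 fold change -1.62, limma with Benjamini-Hochberg adjustment, adjusted p = 0.0242). The groups did not overlap, but the call for CG7798 was lost without knockdown replicate 3 (adjusted p = 0.0717) and without control replicate 2 (0.0816) or 4 (0.0839), and with quantile normalization (0.0620). CG16799, the most abundant of these genes, averaged 107 ± 16.7 FPKM in knockdown larvae and 79.2 ± 5.62 FPKM in control larvae (SD, n = 3 each) and was not called. Of 5 i-type lysozyme genes, a separate invertebrate class, 2 were tested and limma called 0, with 1 higher and 0 lower at an unadjusted p under 0.05. The most abundant, CG6426, averaged 41.6 ± 8.64 FPKM in knockdown larvae and 43.3 ± 4.60 FPKM in control larvae.

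Peptidoglycan recognition proteins of the gut include amidases that also degrade peptidoglycan. Of 6 such genes 5 were tested and 1 was called lower, against 1.08% of all tested genes. This was PGRP-SC1a (log2 fold change -1.29, limma with Benjamini-Hochberg adjustment, adjusted p = 0.0475). Its level was low, at 0.45, 0.56 and 0.42 FPKM in knockdown larvae, against 1.85, 0.78 and 1.5 FPKM in control larvae, and it has a near-identical copy in PGRP-SC1b. The call for PGRP-SC1a was lost on leaving out any library but control replicate 3, with adjusted p between 0.0878 and 0.139. It was also lost with a pseudocount of 1 (log2 fold change -0.66, adjusted p = 0.0579), no filter (0.0622), median-of-ratios scaling (0.0718), quantile normalization (0.0811) and no trend or robust estimate (0.0543). PGRP-SC2, an amidase and the most abundant of them, had 607, 794 and 1110 FPKM in knockdown larvae, against 1649, 1210 and 1805 FPKM in control larvae. Those groups did not overlap, but PGRP-SC2 was not called (log2 fold change -0.92, limma with Benjamini-Hochberg adjustment, adjusted p = 0.0681).

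Digestive enzymes of the midgut, namely amylases, maltases, the lipase mag, trypsins and Jonah proteases, gave the setting for the lysozymes. Of 39 listed genes 37 were tested, and their median log2 fold change was -0.57. Of the 37, 9 were called lower, against 1.08% of all tested genes, and 1 was called higher, against 1.82%. The list was named with results of these libraries known, so its count is no independent evidence of direction. The 39 genes summed to between 56.6% and 66.4% of the control mean in knockdown larvae and between 77.3% and 119% in control larvae. Among the 4 most abundant, the protease Jon25Biii fell, with 4518, 4523 and 4455 FPKM in knockdown larvae, against 10715, 7034 and 10980 FPKM in control larvae (limma with Benjamini-Hochberg adjustment, adjusted p = 0.0192). Without any library other than control replicate 3, Jon25Biii lost its call (adjusted p between 0.0572 and 0.0735), and with quantile normalization its log2 fold change of -0.84 was below 2-fold. Jon65Aiv, deltaTry and Jon99Ciii had log2 fold changes of -0.57, -0.70 and -0.54 and were not called. Jon65Aii was the gene called higher, at 1142 ± 133 FPKM in knockdown larvae and 499 ± 44.4 FPKM in control larvae (SD, n = 3 each).

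**Figure D5:**
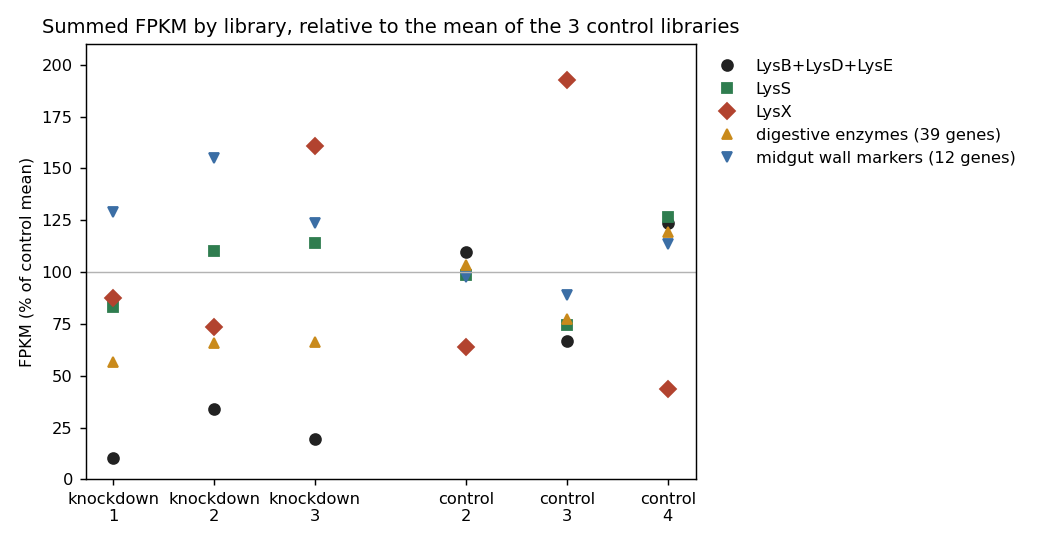
Summed FPKM in each library (y axis, % of the mean of the 3 control libraries) for the near-identical lysozymes, LysS, LysX, the 39 digestive enzymes and the 12 midgut wall markers, with Dctn1 knockdown libraries left of driver control libraries. The near-identical lysozymes lie between 10.3% and 33.7% in knockdown larvae, below the digestive enzymes at 56.6% to 66.4%, while the midgut wall markers lie between 124% and 155%.

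The tissue that makes these enzymes was present in all libraries. The 12 markers of the midgut wall and its regions summed to between 947 and 1186 FPKM in knockdown larvae and between 679 and 869 FPKM in control larvae, and none was at 0. Limma called 0 of the 12 changed, although 8 were higher at an unadjusted p under 0.05. In 10 of them every knockdown library was above every control library, against 28.8% of all tested genes. Their median log2 fold change was 0.44, and it was 0.26 with median-of-ratios scaling, where 2 of the 12 were below 0. Markers of fat body, hemocytes, muscle and neurons also had medians above 0. The 9 salivary gland markers had a median log2 fold change of -1.06, but they ran from -2.88 to 0.88 and 5 of the 9 were below 0. At an adjusted p under 0.05, 2 of the 9 were higher and 0 lower, with changes under 2-fold. Their median ranged from -1.66 to -0.56 on leaving out 1 library. Of 6 fat body markers limma called 0 changed, with 3 higher and 1 lower at an unadjusted p under 0.05. Their median log2 fold change was 0.44, but they ran from -2.67 to 1.21 and 3 of the 6 were below 0. Of 5 hemocyte and 5 muscle markers it called 0 changed, with 2 and 0 higher and 0 and 0 lower at an unadjusted p under 0.05 (medians 0.20 and 0.24). Of 4 neuron markers it called 0 changed, with 3 higher and 0 lower at an unadjusted p under 0.05 (median 0.35). With median-of-ratios scaling the medians of fat body, hemocyte, muscle and neuron markers were 0.26, 0.02, 0.06 and 0.17. Within the groups, the summed near-identical lysozymes and the summed midgut wall markers were both highest in knockdown replicate 2 and control replicate 4. Among control libraries both were lowest in replicate 3, as were LysS and the summed digestive enzymes. The lowest knockdown library was replicate 1 for the near-identical lysozymes and replicate 3 for the midgut wall markers. The part of gut tissue content in the lysozyme values was not tested.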

How the data were processed

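Whole female larvae were sequenced as 6 bulk RNA libraries. The deposited values are FPKM per gene and library, made by the authors by filtering reads with SOAPnuke, mapping with HISAT2 and quantifying with RSEM. The submitters' processing notes also name StringTie and Cufflinks. Versions, build and annotation are not given in the sources used here. How reads shared by near-identical copies were divided could move single copies, so LysB, LysD and LysE were also summed.

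Genes with a mean of at least 0.5 FPKM (9978) were tested on log2(FPKM + 0.1) with limma 3.58.1 (trend and robust estimates) in R 4.3.3, with Benjamini-Hochberg adjustment over all of them. Sums replaced their copies in the same fit. Single values were tested with exact permutation tests in SciPy 1.17.1. On simulated data for 9978 genes, 200 of 200 changed genes and 0 unchanged genes were called. The planted changes were all well past 2-fold, and the same small noise was used for every gene. It was a check of the code and gave no measure of power at the spread of the lysozyme values. The labels call each pool of larvae a biological replicate, and p-values measure the spread between these pools. Alternatives were another pseudocount, filter, scaling, sample weights, a replicate block and leaving out each library.

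The members and lists were chosen with earlier results of these data known. The text names all members, the targeted gene, up to 4 of the most abundant genes of each list with its called genes where 4 or fewer, and the 5 genes nearest in profile to the summed copies. Gene positions are from the BDGP6.54 annotation, matched by symbol and gene ID. Functional annotation columns were not used.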

Additional observations from a re-analysis of the deposited data

How the results depend on the processing

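LysB, LysD, LysE and LysP stayed lower in knockdown larvae under every alternative that gave them a value, with log2 fold changes of -3.19 to -2.09, -2.10 to -1.15, -2.28 to -1.32 and -1.77 to -1.20. The number of members called lower was 2, against 1 with a mean of at least 5 FPKM, which removed LysP from the test, 1 with quantile normalization, where LysB had an adjusted p of 0.0534, and 4 with sample weights. It was between 0 and 3 on leaving out 1 library. The sum of the near-identical copies passed the threshold with a pseudocount of 1 (log2 fold change -2.30), a mean of at least 5 FPKM (-2.34), no trend or robust estimate (-2.34) and sample weights (-2.44), and ranged from -2.76 to -1.90 on leaving out 1 library. The targeted gene passed the 2-fold threshold with median-of-ratios scaling (-1.12), quantile normalization (-1.11) and sample weights (-1.01), and ranged from -1.04 to -0.89 on leaving out 1 library. The changes that were near 0 turned round: LysS was -0.13 and the sum of all members -0.16 with median-of-ratios scaling. On leaving out 1 library LysS ranged from -0.14 to 0.24, the sum of all members from -0.17 to 0.20 and LysX from -0.13 to 0.93. Median-of-ratios scaling moved the median of all genes to -0.01, against 0.16, and the higher share of calls to 48.7%, against 62.8%. The cause was not tested.

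Knockdown and control libraries share only replicate numbers 2 and 3, and nothing in the labels says that a number marks a pair. Deviations from the group means correlated at 0.402 for number 2 and 0.137 for number 3 across genes, but libraries of unlike number reached 0.628 (knockdown 1 with control 3) and 0.385 (knockdown 2 with control 4), so the numbers were not taken to pair the samples. With a replicate block on those libraries the sum of the copies had a log2 fold change of -1.73, the targeted gene -1.03, LysX -0.029, LysE -1.32 (adjusted p = 0.0192) and LysP -1.49 (adjusted p = 0.128, limma). It also ended the calls for Jon25Biii (-0.95, adjusted p = 0.0765), PGRP-SC1a (-1.16, 0.0993) and AttD (1.88, 0.253). Genes called lower numbered 200, against 108, and digestive enzymes called lower 4, against 9.

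Depth cannot be read from FPKM, so counting error at the low levels of LysP is unknown.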

Other observations

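The profile of the summed near-identical lysozymes over the 6 libraries was most like those of 5 genes among 9972 compared, by the root mean square difference of centred log2 values. These were CG7634, the copper importer Ctr1B, CG13230, the metallothionein MtnA and CG10183, at differences of 0.28 to 0.41. Ctr1B had 67.5, 119 and 127 FPKM in knockdown larvae, against 529, 413 and 620 FPKM in control larvae. MtnA had 199, 352 and 306 FPKM in knockdown larvae, against 1327, 1381 and 2410 FPKM in control larvae. Both genes were far lower in every knockdown library, as the lysozyme sum was. The likeness is a description over 6 libraries, and it rests mostly on the difference between the groups.

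The same measure was applied to the other members after their values had been seen. LysS was nearest to CG43349, the muscle myosin heavy chain gene Mhc, CG18304, the muscle gene Unc-89 and Amph, at differences of 0.06 to 0.08. Mhc had 432, 535 and 598 FPKM in knockdown larvae, against 553, 389 and 650 FPKM in control larvae. Its lowest libraries, knockdown replicate 1 and control replicate 3, were those of LysS. LysP was nearest to the larval cuticle gene Lcp4, with 17770, 14375 and 21756 FPKM in knockdown larvae, against 49329, 37319 and 43049 FPKM in control larvae. LysX was nearest to Eip93F, an ecdysone-induced regulator of metamorphosis, at a difference of 0.33. Eip93F had 1.26, 0.74 and 1.71 FPKM in knockdown larvae, against 1.02, 3.11 and 0.84 FPKM in control larvae. Control replicate 3 was the highest library for both LysX and Eip93F.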
